A study of Homo sapiens with 6 samples.

Results

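The genes described here are the 5 subunits of the transcription factor NF-κB (*NFKB1*, *NFKB2*, *REL*, *RELA* and *RELB*), 3 of its inhibitors (*NFKBIA*, *NFKBIE* and *TNFAIP3*), and 2 adhesion molecules that NF-κB is known to induce (*ICAM1* and *VCAM1*). They are 10 of the 60623 genes in the count table and were taken from it by symbol. *VCAM1* was selected on its strong decrease in the same comparison, so its values are given as a description without a test, and the other 9 genes were named by their function. RNA-Seq was performed in TC28a2 cells, an immortalized human chondrocyte line, treated for 24 hours with 2 μM mocetinostat, an inhibitor of class I histone deacetylases, or with its vehicle DMSO alone. Each condition had 3 samples from independent experiments, no inflammatory stimulus is named in the labels for either condition, and the results hold for 1 cell line and 1 dose and time. Total counts per sample were between 4873426 and 11031132 in DMSO and between 1619344 and 5089542 with mocetinostat.

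NF-κB acts as dimers of Rel-family subunits. *RELA*, *RELB* and *REL* encode subunits with a transactivation domain, whereas *NFKB1* and *NFKB2* encode the precursors p105 and p100, which are processed to p50 and p52 and, unprocessed, hold other subunits in the cytoplasm. *NFKBIA* and *NFKBIE* encode the inhibitors IκBα and IκBε, which are degraded when IκB kinase is activated, and *TNFAIP3* encodes A20, a ubiquitin-editing enzyme that limits signaling to that kinase. *ICAM1* and *VCAM1* encode immunoglobulin-superfamily receptors that bind leukocyte integrins, and both are classical cytokine-induced genes of endothelium that synovial cells and chondrocytes can also express.

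The sequence just before the transcription start is shown for the 4 genes with the largest differences in mRNA. The sequences are RefSeq promoter windows on GRCh38.p14, read 5′ to 3′ on the strand of the gene, each ending at the base before the annotated gene start, and capitals mark matches to a κB motif. *VCAM1* is shown for chr1:100719492-100719741, *ICAM1* for chr19:10270870-10271092, *TNFAIP3* for chr6:137867009-137867213 and *NFKB1* for chr4:102501109-102501329, all on the plus strand.
VCAM1: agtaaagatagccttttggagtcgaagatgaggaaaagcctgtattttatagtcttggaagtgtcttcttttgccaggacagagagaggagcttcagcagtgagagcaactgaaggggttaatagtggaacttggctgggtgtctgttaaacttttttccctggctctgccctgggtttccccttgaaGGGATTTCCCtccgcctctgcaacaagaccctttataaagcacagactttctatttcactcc
ICAM1: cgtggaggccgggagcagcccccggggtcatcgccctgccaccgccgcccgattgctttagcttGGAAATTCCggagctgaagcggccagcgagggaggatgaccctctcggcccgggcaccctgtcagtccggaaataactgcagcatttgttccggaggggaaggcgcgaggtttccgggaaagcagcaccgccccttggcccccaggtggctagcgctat
TNFAIP3: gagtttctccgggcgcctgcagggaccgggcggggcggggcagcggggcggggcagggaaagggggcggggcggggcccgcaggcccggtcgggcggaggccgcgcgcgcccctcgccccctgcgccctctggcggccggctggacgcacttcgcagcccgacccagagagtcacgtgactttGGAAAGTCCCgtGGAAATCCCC
NFKB1: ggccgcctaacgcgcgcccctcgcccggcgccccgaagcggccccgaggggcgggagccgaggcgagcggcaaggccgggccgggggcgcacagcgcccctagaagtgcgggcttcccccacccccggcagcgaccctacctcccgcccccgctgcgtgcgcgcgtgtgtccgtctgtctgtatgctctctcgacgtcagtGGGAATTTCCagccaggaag

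Windows were searched on both strands for the κB consensus and for GGANNTTCC, which can overlap each other. Distances are counted back from the RefSeq transcript start, which lies directly after the *VCAM1* sequence and 27, 45 and 29 bases after the end of those of *ICAM1*, *TNFAIP3* and *NFKB1*. *VCAM1* held GGGATTTCCC between 62 and 53 bases before its start, and *ICAM1* held GGAAATTCC between 186 and 178 bases before its start. *TNFAIP3* held a pair of matches that lay close together, GGAAAGTCCC from 67 to 58 and GGAAATCCCC from 55 to 46 bases before its start, and *NFKB1* held GGGAATTTCC from 49 to 40 bases before its start. A match was thus present in the promoters of the 2 genes with higher and the 2 genes with lower mRNA alike. RefSeq gave 12 windows for 8 of the 10 genes, and 8 of the 12 windows held either motif, compared with 11.9% of the 35116 promoters in the RefSeq table. These windows belonged to 7 genes, all but *RELA*, and genes with several windows had more than one chance to match. TATAAA was found in 3 windows, those of *NFKBIA*, *ICAM1* and *VCAM1*, against 10.7% of all promoters, and the AP-1 motif TGANTCA was found in 0 of the 12 windows, against 6.57% of all promoters. *RELB* and *NFKBIE* had no entry.

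In mocetinostat-treated cells, *ICAM1* and *TNFAIP3* mRNA rose more than 3-fold, *NFKB1* mRNA fell more than 3-fold, and *NFKB2* and *NFKBIE* mRNA rose by less than 2-fold. *VCAM1* stood at one of the lowest fold changes of all genes. *RELA*, *RELB*, *REL* and *NFKBIA* did not pass the test. Levels are given in CPM, a gene's count relative to the total of its library, scaled with the TMM factors by which edgeR corrects for differences in library composition, and mocetinostat was compared with DMSO by the quasi-likelihood test of edgeR over 13966 genes, with Benjamini-Hochberg adjustment over all of them. A gene was said to rise or fall at an adjusted p under 0.05, and it was called when its log2 fold change was also beyond 1 in either direction.

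All 10 genes passed the expression filter. Of the 9 genes other than *VCAM1*, 3 (33.3%) were called, against a background of 28.4% of all genes tested. The 2 called higher compare with 20.2% of all genes called higher, and the 1 called lower compares with 8.18% called lower. At any fold, 5 of the 9 (55.6%) had an adjusted p under 0.05, against 64.3% of all genes, and the conditions did not overlap for 6 of the 9 (66.7%), against 66.5% of all genes. The share of these genes that changed was therefore near the background, and the median log2 fold change of the 9 was 0.13, beside -0.0021 over all genes. Libraries were also scaled to *GAPDH*, whose own mRNA fell by 0.53 on the log2 scale with TMM. Higher calls then made up 94.0% of all called genes in place of 71.2%. With that scaling 5 of the 9 genes were called, beside 31.7% of all genes called higher and 2.03% called lower. *REL*, *RELB* and *NFKBIA* then had an adjusted p under 0.05 as well (log2 fold changes 0.64, 0.56 and 0.66), near the median of 0.53 that all genes had with that scaling.

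**Figure D1:**
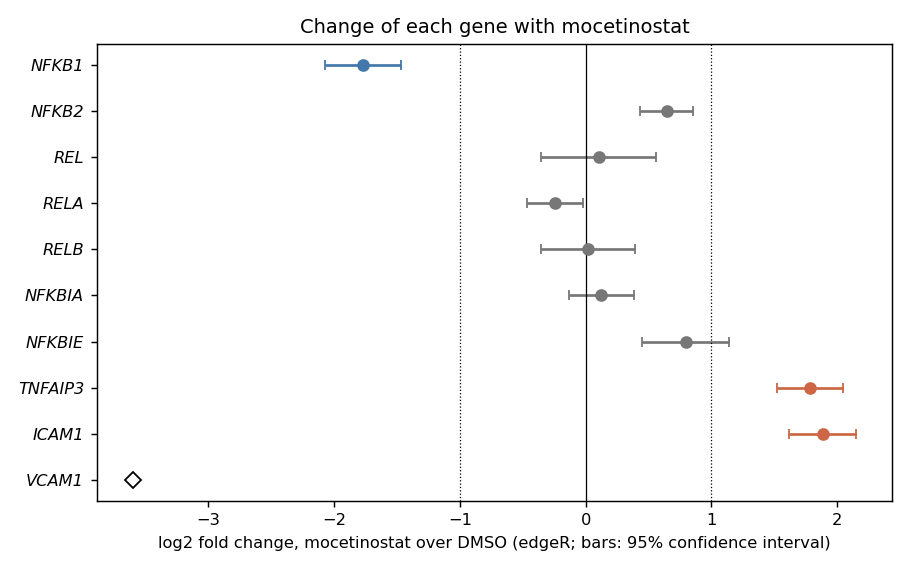
Log2 fold change of mocetinostat over DMSO for each of the 10 genes by edgeR, with bars giving the 95% confidence interval for the 9 genes tested and no bar for *VCAM1*, which was selected on this value. *ICAM1* and *TNFAIP3* lie above 1, *NFKB1* and *VCAM1* lie below -1, and the intervals of *REL*, *RELB* and *NFKBIA* include 0.

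Among the subunits, *NFKB1* (chr4:102501330-102617302, plus strand, GRCh38) had the largest difference. It was present at 68.3, 63.9 and 67.8 CPM in the DMSO samples and at 22.2, 13.6 and 19.9 CPM in the mocetinostat samples. Every mocetinostat sample lay far below every DMSO sample. *NFKB1* mRNA was 3.40-fold lower (log2 fold change -1.77, SE 0.15, adjusted p = 5.71e-17 by edgeR). A lower level in every cell and a smaller share of cells with the transcript cannot be told apart in bulk RNA, for this gene and for those that follow.

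*NFKB2* (chr10:102394110-102402524, plus strand), which encodes the other precursor, moved the opposite way. Its level was 81.3, 87.0 and 90.8 CPM in DMSO and 130.1, 158.0 and 120.6 CPM with mocetinostat, with all 3 mocetinostat samples above all DMSO samples. The rise was 1.56-fold (log2 fold change 0.65, SE 0.11, adjusted p = 1.81e-07 by edgeR), which is below the fold needed for a call.

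None of the 3 transactivating subunits passed the test with TMM scaling. *RELA* (chr11:65653599-65663090, minus strand) was at 88.8, 104.7 and 94.6 CPM in DMSO and at 77.3, 78.7 and 87.0 CPM with mocetinostat. The samples of the 2 conditions did not overlap, but the log2 fold change of -0.24 (95% CI -0.47 to -0.02) narrowly missed the threshold after adjustment (adjusted p = 0.0504 by edgeR), and it turned to 0.29 with *GAPDH* scaling. The decrease of *RELA* passed the test without the expression filter (-0.49) and without DMSO sample 1 (-0.32), DMSO sample 3 (-0.28) or mocetinostat sample 3 (-0.31). *RELB* (chr19:45001461-45038192, plus strand) was at 20.6, 22.1 and 22.3 CPM in DMSO and at 25.8, 15.5 and 21.1 CPM with mocetinostat. One mocetinostat sample was above and one below all DMSO samples, and the interval of its log2 fold change ran from -0.36 to 0.39. *REL* (chr2:60881491-60931612, plus strand), the least abundant subunit, was at 12.3, 12.7 and 14.7 CPM in DMSO and 14.3, 9.30 and 17.8 CPM with mocetinostat. Its conditions overlapped, with an interval from -0.36 to 0.56, and as few as 15 counts stood behind the lowest value. A readthrough gene on the same strand shares 33.3% of the exon bases of *REL* and held 0 counts in all 6 samples. How reads over these shared bases were assigned is not given in the sources used here. The level of *REL*, and its share and rank among the genes below, may therefore be too low.

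**Figure D2:**
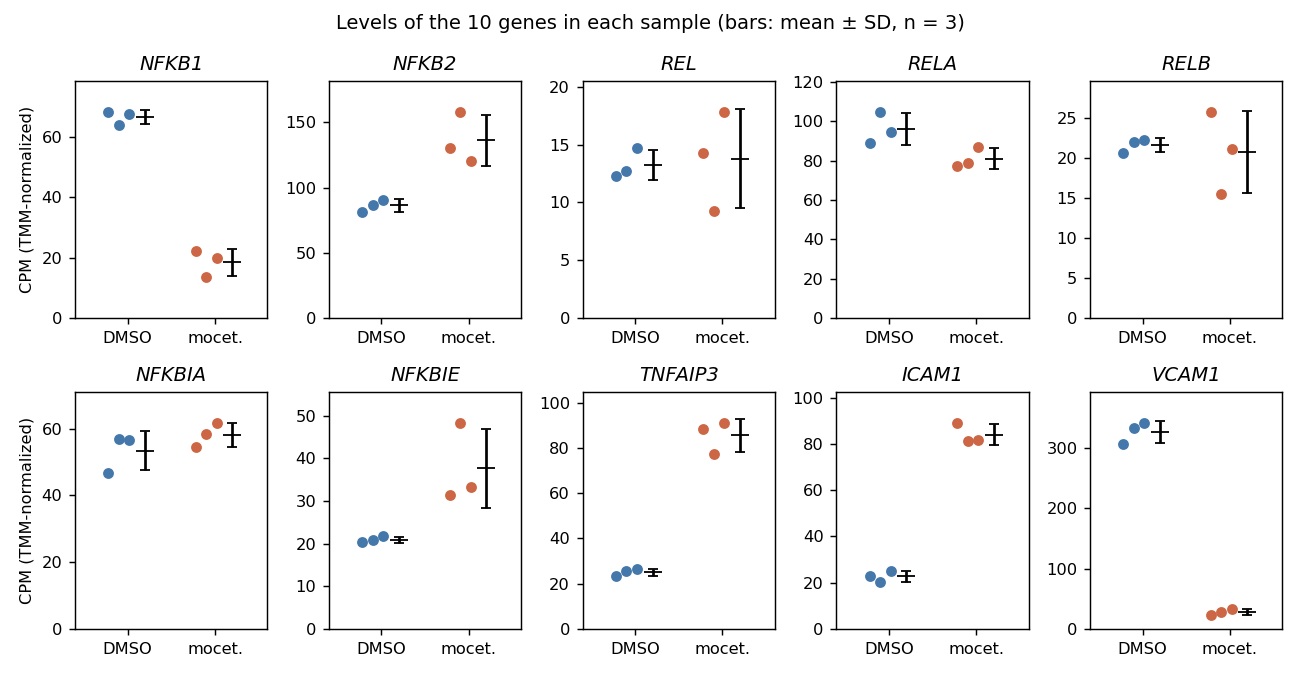
CPM for each of the 10 genes, in 1 panel per gene with its own linear axis from 0. Each point is 1 sample, and bars beside the points give the mean and SD of each condition (3 DMSO and 3 mocetinostat samples). The conditions overlap for *REL*, *RELB* and *NFKBIA* and are separate for the other 7 genes.

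Because the 5 subunits combine with each other, their mRNAs were compared per length as reads per kilobase of the MANE Select transcript from the same CPM (RPKM). With TMM scaling the summed level was nearly the same, at 94.0 ± 4.13 RPKM in DMSO and 92.4 ± 2.17 RPKM with mocetinostat (SD, n = 3), while its make-up differed. The sum depends on the scaling and was not computed with *GAPDH* scaling, which moved the median log2 fold change of all genes to 0.53. The shares within a sample do not depend on it. *NFKB2* accounted for 30.2%, 29.7% and 31.5% of the sum in the DMSO samples and for 46.9%, 55.3% and 44.2% in the mocetinostat samples. *NFKB1* accounted for 18.9%, 16.2% and 17.5% in DMSO and 5.95%, 3.55% and 5.42% with mocetinostat. *RELA* was the largest component in all DMSO samples and *NFKB2* in all mocetinostat samples. The share of *RELA* was 40.5% ± 1.97 in DMSO and 34.9% ± 2.91 with mocetinostat, that of *RELB* stayed near 10% in the mean, and *REL* contributed under 2% in every sample. With lengths taken over all annotated exons instead, the mean share of *NFKB1* went from 9.41% to 2.47% and that of *NFKB2* from 34.1% to 50.6%. The sum was then 45.3 ± 2.22 RPKM in DMSO and 48.2 ± 1.20 RPKM with mocetinostat.

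**Figure D3:**
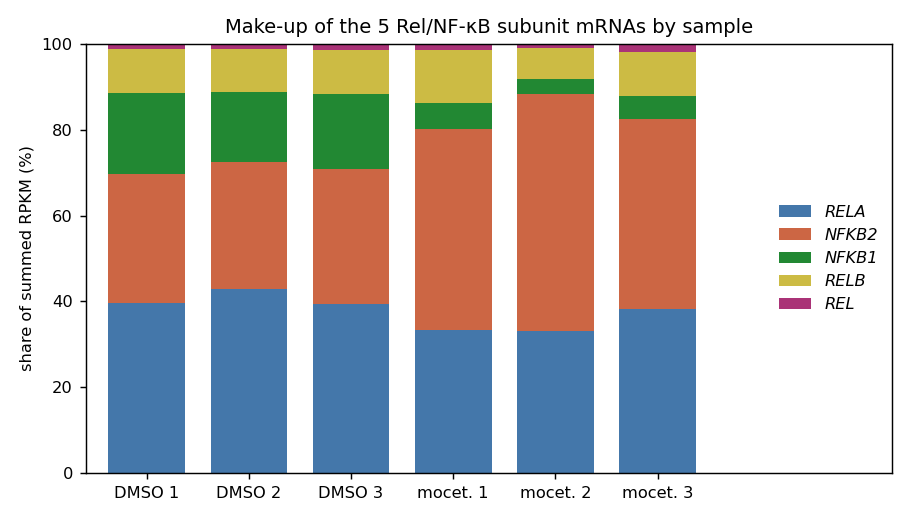
Share of each subunit mRNA in the summed RPKM of the 5 subunits, as 1 stacked bar per sample. The *NFKB2* part widens from about 30% in DMSO to between 44.2% and 55.3% with mocetinostat, and the *NFKB1* part narrows to under 6%.

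Ratios of counts within a library do not depend on how libraries are scaled to each other. The count ratio of *NFKB2* to *NFKB1* was 1.19, 1.36 and 1.34 in the DMSO samples and 5.86, 11.6 and 6.06 in the mocetinostat samples, a 5.74-fold difference. The conditions were fully separated, and the exact permutation test gave its smallest possible two-sided p for 3 against 3 samples (p = 0.1, 0.125 after adjustment over 5 ratios), so this design cannot pass 0.05. The count ratio of *RELB* to *RELA* differed by 0.16 on the log2 scale (exact p = 0.7).

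Of the inhibitors, *TNFAIP3* (chr6:137867214-137883314, plus strand) showed the largest change. Its level was 23.4, 25.4 and 26.5 CPM in DMSO and 88.2, 77.5 and 91.2 CPM with mocetinostat. All mocetinostat samples were far above all DMSO samples, and *TNFAIP3* mRNA rose 3.45-fold (log2 fold change 1.79, SE 0.13, adjusted p = 4.94e-20 by edgeR). *NFKBIE* (chr6:44258166-44265788, minus strand) was at 20.3, 20.8 and 21.7 CPM in DMSO and at 31.3, 48.3 and 33.2 CPM with mocetinostat. The conditions were separate, the second mocetinostat sample was the highest, and the rise of 1.73-fold (log2 fold change 0.79, SE 0.17, adjusted p = 4.55e-05 by edgeR) was below the fold needed for a call.

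*NFKBIA* (chr14:35401079-35404749, minus strand), the classical feedback target of NF-κB, was at 46.6, 56.8 and 56.6 CPM in DMSO and at 54.5, 58.3 and 61.8 CPM with mocetinostat. The samples overlapped, and the log2 fold change was 0.13 with an interval from -0.13 to 0.38 (adjusted p = 0.406 by edgeR). Within libraries, the count ratio of *NFKBIA* to *RELA* was 0.524, 0.543 and 0.598 in DMSO and 0.705, 0.740 and 0.710 with mocetinostat, and that of *NFKBIA* to *NFKBIE* was 2.30, 2.73 and 2.61 in DMSO and 1.74, 1.21 and 1.86 with mocetinostat. *NFKBIA* thus stood higher relative to *RELA* and lower relative to *NFKBIE* in all mocetinostat samples, and both ratios had the smallest exact p of 0.1 (0.125 after adjustment).

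The 2 adhesion molecules went in opposite directions. *ICAM1* (chr19:10271093-10286615, plus strand) was at 22.8, 20.4 and 25.1 CPM in DMSO and at 89.2, 81.2 and 81.6 CPM with mocetinostat. All mocetinostat samples were far above all DMSO samples, and the rise was 3.69-fold (log2 fold change 1.89, SE 0.13, adjusted p = 6.76e-21 by edgeR). A pair of antisense genes overlaps *ICAM1*, of which *ICAM4-AS1* covers 23.6% of its exon bases. *ICAM4-AS1* held at most 12 counts in any sample, where *ICAM1* held between 98 and 450. Whether counting used strand, and how reads over shared bases were assigned, is not given in the sources used here. These counts therefore cannot show whether *ICAM1* lost reads in the shared bases.

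*VCAM1* (chr1:100719742-100739045, plus strand) was at 306.8, 333.0 and 342.2 CPM in DMSO and at 22.8, 27.3 and 33.6 CPM with mocetinostat. Its log2 fold change of -3.60, a 12.1-fold lower level, was the third lowest of the 13966 genes. In DMSO its level was above that of 96.7% of the genes tested, and with mocetinostat it lay at the middle of the range. The transcript did not disappear, since 115, 44 and 81 counts remained in the mocetinostat samples, against 3391, 1599 and 2322 in DMSO. The count ratio of *ICAM1* to *VCAM1* was 0.0743, 0.0613 and 0.0732 in DMSO and 3.91, 2.98 and 2.43 with mocetinostat, so *VCAM1* had more counts than *ICAM1* in every DMSO sample and fewer in every mocetinostat sample. The ratio of *ICAM1* to *NFKBIA*, both NF-κB targets, went from 0.489, 0.359 and 0.443 to 1.64, 1.39 and 1.32, with no overlap (3.38-fold, exact p = 0.1, 0.125 after adjustment).

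Ordered by RPKM, *VCAM1* was the most abundant of the 10 mRNAs in DMSO (105.6 ± 5.93) and the eighth with mocetinostat (8.99 ± 1.74). It was followed in DMSO by *RELA* (38.2 ± 3.20), *NFKBIA* (34.2 ± 3.75) and *NFKB2* (28.7 ± 1.58), and neighbours in this group of 3 overlapped between samples. *NFKB1* came next at 16.4 ± 0.590, then *RELB* and *NFKBIE*, which overlapped, *ICAM1* at 7.67 ± 0.783, *TNFAIP3* at 5.39 ± 0.336 and *REL* at 1.19 ± 0.118. With mocetinostat the order was *NFKB2* (45.2 ± 6.46), *NFKBIA* (37.3 ± 2.32), *RELA* (32.2 ± 2.09), *ICAM1* (28.3 ± 1.52), *TNFAIP3* (18.4 ± 1.55), *NFKBIE* (16.0 ± 3.98), *RELB* (9.21 ± 2.28), *VCAM1*, *NFKB1* (4.58 ± 1.09) and *REL* (1.24 ± 0.386). *TNFAIP3* and *NFKBIE* overlapped there, as did *RELB* and *VCAM1*. With lengths over all exons, *VCAM1* was again first in DMSO and *REL* last in both conditions, and *NFKB1* ranked 8 in place of 5 in DMSO. With mocetinostat *NFKB2* and *ICAM1* then had nearly the same mean (24.4003 and 24.3657 RPKM), their samples overlapped, and *ICAM1* was above *NFKB2* in samples 1 and 3.

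The patterns most like those of the adhesion genes were described by the Pearson correlation of log2 CPM over the 6 samples among 10974 genes, all of which share the same libraries and the same split by condition. For *VCAM1* these were *TNPO2*, *MYOF* and *C1QBP* (r = 0.99903, 0.99867 and 0.99867), whose log2 fold changes of -1.43, -1.21 and -1.08 were far smaller than that of *VCAM1*. For *ICAM1* they were *FARP1*, *JARID2* and *DHRS7* (r = 0.99963, 0.99958 and 0.99957). Within 100 kb of *VCAM1* lie 3 genes, which held at most 5 counts in any sample and were not tested. Within 100 kb of *ICAM1* lie 16 genes, of which 7 were tested. *ICAM5*, of the same family, was called higher (7.33 to 19.0 CPM, log2 fold change 1.45, adjusted p = 2.33e-07 by edgeR), and *RAVER1* was called lower (93.7 to 36.9 CPM, log2 fold change -1.33). *ICAM4* held between 1 and 16 counts and was not tested.

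The other genes of the pathway were grouped by role, leaving the 10 genes out of each group. Of 8 IκB inhibitors and nuclear IκB-like proteins, 1 was called higher and 1 lower, with a median log2 fold change of -0.05. *NFKBIZ*, the nuclear IκBζ, rose from 21.4 to 70.7 CPM (log2 fold change 1.76), and *COMMD1* fell from 16.7 to 7.80 CPM (log2 fold change -1.08), a call lost with *GAPDH* scaling (-0.54) and without DMSO sample 1 (-0.99) or mocetinostat sample 3 (-0.94). *NFKBIB* (0.02) did not pass the test, and *BCL3* rose by 0.44. Of 12 genes of the IκB kinase complex and its upstream kinases, 1 was called: *MAP3K8*, from 0.852 to 6.14 CPM. *MAP3K8* held 4 to 7 counts in DMSO and passed the expression filter only through mocetinostat. With at least 10 counts in every sample, 0 of 9 genes of this group were called. *MAP3K14*, the kinase that leads to p100 processing, was at 176 and 197 CPM (log2 fold change 0.17) and did not pass the test. Of 14 tested ubiquitin editors and feedback inhibitors, 1 was called, *BIRC3*, from 6.69 to 25.6 CPM. Of 16 tested adaptors, 5 were called higher with *GAPDH* scaling, beside 31.7% of all genes with that scaling. With TMM scaling 1 adaptor was called, *IRAK2* (23.0 to 51.3 CPM, log2 fold change 1.18, or 0.93 without the expression filter). Over these 4 groups, 5 of the 50 genes tested (10%) were called, beside 28.4% of all genes, and 29 (58.0%) had an adjusted p under 0.05 at any fold, beside 64.3% of all genes. This pool was not planned beforehand. With at least 10 counts in every sample, 1 of 7 inhibitors was called higher and 1 lower. Of the ubiquitin editors 1 of 14 was then called higher, and of the adaptors 1 of 16. Over all genes, 14.9% were then called higher and 6.47% lower.

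Receptors, ligands and targets were often near the detection limit in DMSO, and a gene that passed the expression filter only through its mocetinostat counts had to be higher there. Calls are therefore also given among genes with at least 10 counts in every sample, of which 14.9% were called higher and 6.47% lower over all genes. Of 13 tested receptors, 6 were called higher and 0 lower, beside 20.2% and 8.18% of all genes, and 4 of 8 were called higher with at least 10 counts in every sample. Without a filter, 7 of 16 were called higher and 2 lower, beside 7.9% and 5.23% of all genes. *TNFRSF1B*, with 9 to 18 counts in DMSO, and *TNFRSF11A*, with 1 to 9, passed the filter only through mocetinostat, so their fold changes start from few counts. *TNFRSF1B*, the second TNF receptor, went from 1.81 to 47.0 CPM (log2 fold change 4.79), *TNFRSF11A*, which encodes RANK, from 0.636 to 24.1 CPM (5.05), and *TNFRSF9* from 5.62 to 35.5 CPM (2.71). In contrast, *TNFRSF1A*, the main TNF receptor, fell from 118 to 66.2 CPM (-0.83), *TLR4* fell from 45.7 to 29.1 CPM (-0.63), and *IL1R1* rose from 44.4 to 86.6 CPM (0.95), none of which reached the fold for a call. Of 13 ligands, 2 passed the filter, and 0 had at least 10 counts in every sample. *IL1B* rose from 1.88 to 11.4 CPM, with 8 to 26 counts in DMSO, and passed the filter only through mocetinostat. *IL18* held at most 3 counts in every DMSO sample and passed the filter only through mocetinostat, where it was at least 7.32-fold higher against a floor of 3 counts per library in DMSO. *TNF*, singled out after its values were seen, held 1 count in 1 DMSO sample and 0 in the other 5 samples.

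Of 25 tested target genes other than the 10, 16 were called higher and 2 lower, beside 20.2% and 8.18% of all genes. Among them *BCL2A1* and *ELF3*, named after their values were seen, held at most 3 counts in every DMSO sample. With at least 10 counts in every sample, 8 of 17 targets were called higher and 2 lower. *PTGS2*, which encodes the prostaglandin-forming enzyme cyclooxygenase 2, rose from 3.10 to 139.9 CPM (log2 fold change 5.44), *CXCL8*, a neutrophil chemokine, from 4.71 to 73.9 CPM (3.95), and *MMP1*, a collagenase, from 106.4 to 401.2 CPM (1.92). The 2 called lower were *LIF*, from 181.2 to 54.4 CPM (-1.71), and *CCL2*, a monocyte chemokine, from 14.0 to 7.02 CPM (-1.08), a call lost with *GAPDH* scaling (-0.54) and without mocetinostat sample 1 (-0.90). *IRF1* rose by 0.69, from 49.0 to 79.1 CPM. The decrease of *VCAM1* was larger than that of any of these 25 targets. Because *VCAM1* was selected on that decrease, this rank is a description only.

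**Figure D4:**
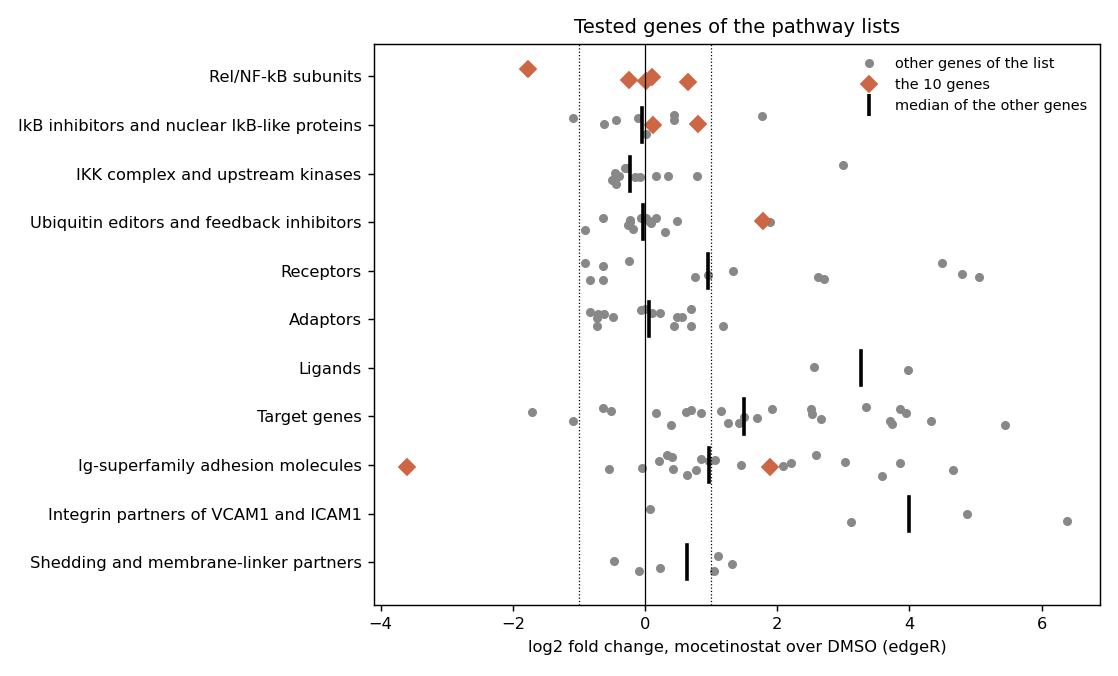
Log2 fold change by edgeR of each tested gene, grouped by role in NF-κB signaling and in adhesion, with the 10 genes as diamonds, the other genes as grey points, their median as a black bar, and dotted lines at the fold needed for a call. *VCAM1*, which was selected on its decrease, lies lowest of all genes shown. With TMM scaling the medians are near 0 for inhibitors, kinases, ubiquitin editors and adaptors and above 0.6 for the other groups. *GAPDH* scaling moved all genes up, and some genes entered only through their mocetinostat counts.

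Among immunoglobulin-superfamily adhesion molecules other than *ICAM1* and *VCAM1*, 9 of the 19 tested were called higher and 0 lower, beside 20.2% and 8.18% of all genes, and 17 had an adjusted p under 0.05 by edgeR, all of them higher, where 64.3% of all genes had one in either direction. With at least 10 counts in every sample, 8 of 16 were called higher and 0 lower. *NCAM1* rose from 27.6 to 223.3 CPM (3.03), *CADM3* from 4.79 to 66.6 CPM (3.85) and *NFASC* from 4.95 to 59.6 CPM (3.58). *ICAM1* was higher like these 17 genes, and *VCAM1* was lower.

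**Figure D5:**
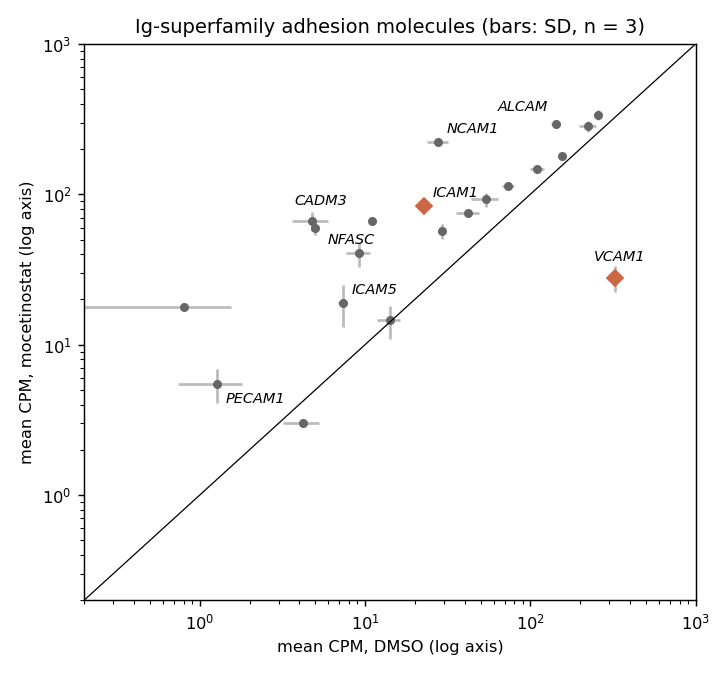
Mean CPM with mocetinostat against mean CPM with DMSO, on log axes, for the tested immunoglobulin-superfamily adhesion molecules, with bars giving the SD of 3 samples (a bar that reaches the axis continues below it) and a diagonal at equal levels. *VCAM1* lies far below the diagonal at 327.3 and 27.9 CPM, and *ICAM1* and most other genes lie above it.

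The integrin chains that bind these receptors were mostly at low levels, and 4 of 9 passed the filter, 1 of them with at least 10 counts in every sample. *ITGA4*, the α chain of VLA-4, which binds *VCAM1*, and *ITGA9*, which also pairs with β1, were at or below 3 counts in every DMSO sample, passed the filter only through mocetinostat, and were at least 10.2-fold and 14.3-fold higher with mocetinostat against the floor of 3 counts per library. *ITGAX*, a leukocyte integrin chain, rose from 1.09 to 10.3 CPM (3.12), with 4 to 17 counts in DMSO, and also passed the filter only through mocetinostat. *ITGB1* was at 453 and 473 CPM and did not pass the test (0.07), and *ITGB2*, the β chain of LFA-1, which binds *ICAM1*, held between 1 and 10 counts in every sample. Of 6 genes for shedding and membrane linkage, 3 were called higher, also with at least 10 counts in every sample. Over all genes, 20.2% were called higher, or 14.9% with at least 10 counts in every sample. The 3 were *SDC4* (278.7 to 694.5 CPM, 1.31), *EZR* (239.3 to 514.7 CPM, 1.11), which encodes the linker ezrin, and *ADAM17* (64.6 to 132.7 CPM, 1.04), the protease that releases soluble *VCAM1*. The calls of *EZR* (0.86) and *ADAM17* (0.79) were lost without the expression filter, and that of *ADAM17* also without DMSO sample 1 (0.94) or mocetinostat sample 3 (0.98).

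Markers of cell types were measured because *ICAM1* and *VCAM1* are also endothelial and leukocyte genes. Of 10 tested chondrocyte markers, 6 were called higher and 0 lower, beside 20.2% and 8.18% of all genes. Among the 6, *SOX5* held at most 5 counts in DMSO, *COMP* at most 8, *COL2A1* as few as 7 and *MATN3* as few as 13. They passed the expression filter only through their mocetinostat counts, so the filter favored a higher level there. *SOX9* was expressed in both conditions, while the matrix genes *COL2A1* and *ACAN* were low in DMSO, at 2.20 and 4.72 CPM. Of 8 tested endothelial markers, 4 were called higher and 0 lower, beside the same 20.2% and 8.18% of all genes. The sum of the list was 37.7 to 41.9 CPM in DMSO and 107.5 to 114.4 CPM with mocetinostat. The 4 were *KDR*, at most 3 counts in every DMSO sample and at least 54.8-fold higher with mocetinostat, *ESAM* (0.437 to 10.4 CPM), *VWF* (1.53 to 10.4 CPM) and *PECAM1* (1.27 to 5.51 CPM). In DMSO *ESAM* held 2 to 5 counts, *VWF* 6 to 14 and *PECAM1* 7 to 10. All 4 passed the expression filter only through their mocetinostat counts, so the filter favored a higher level there. *CLDN5* held 0, 0 and 1 counts in DMSO and 10, 0 and 1 with mocetinostat, and *CDH5* was at 3.04 and 3.12 CPM and did not pass the test (log2 fold change 0.12). Of 12 leukocyte markers, 7 held at most 3 counts in every sample, and *CD3E* and *CD2* held 0 counts. Of 3 tested, 1 was called higher, beside 20.2% of all genes. This was *CD14*, which held 1 to 15 counts in DMSO and 16 to 21 with mocetinostat. It passed the filter only through mocetinostat. The sum of the list was 7.22 to 10.9 CPM in DMSO and 13.5 to 21.1 CPM with mocetinostat. The part of these markers in the values of *ICAM1* and *VCAM1* was not tested.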

How the data were processed

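Total RNA from 3 DMSO and 3 mocetinostat samples was sequenced as single reads of 100 bases after ribosomal RNA depletion. The authors deposited raw counts of reads per gene, made with STAR 2.6.1d and featureCounts 1.6.4 on GRCh38 (Ensembl 98). The strand setting and the handling of reads with several matches are not given in the sources used here.

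From these counts, edgeR 4.0.16 (limma 3.58.1, R 4.3.3) computed TMM factors and CPM, kept 13966 genes with filterByExpr at its minimum count of 10, and tested treatment alone by quasi-likelihood with Benjamini-Hochberg adjustment over all genes kept. Calls needed an adjusted p under 0.05 and a change beyond 1 on the log2 scale. Likeness was computed with a prior count of 2 among genes whose mean reached 10 CPM in either condition. Floors of 3 counts per library cover counting error only. Positions, exons and MANE Select lengths were taken from GENCODE 44. Count ratios were tested by exact two-sided permutation over samples. Summaries and figures were made in Python 3.11.15 (pandas 2.3.3, matplotlib 3.10.9).

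The members and the lists were chosen with earlier results of these data known. Genes named from each list were up to 3 called higher and 3 called lower with the smallest p, relatives and direct partners of the 10 genes, the 3 patterns most like *ICAM1* and *VCAM1*, and neighbours within 100 kb. *TNF* and single marker genes were chosen after their values were seen. Replicates differed by more than sampling noise (chi-square per degree of freedom 1.96 to 7.19), so each sample counted as 1 replicate. In simulated data, edgeR recovered 200 of 200 changed genes. Only well-counted genes were changed there, all by a large fold, so the recovery does not cover smaller changes or genes with few counts. Alternatives were RLE factors, library size only, *GAPDH* scaling, no filter, at least 10 counts in every sample, DESeq2 1.42.0, a replicate block, thinning to the smallest total, and each sample left out in turn.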

Additional observations from a re-analysis of the deposited data

How the results depend on the processing

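Of 224 comparisons of a result with an alternative, 201 left the result where it was. For counts of genes this meant a number of similar size, and for the 9 tested genes the same direction and the same call. For *VCAM1* and the ratios it meant the same direction and a value within the spread. A gene whose adjusted p alone crossed 0.05 still counted as unchanged, as *RELA* did without the filter. *ICAM1* (log2 fold change 1.63 to 2.42), *TNFAIP3* (1.53 to 2.32) and *NFKB1* (-2.02 to -1.23) were called under all 14 alternatives, and *VCAM1* was between -3.84 and -3.06. With *GAPDH* scaling the median of all genes moved to 0.53, and 4425 genes (31.7%) were called higher and 284 (2.03%) lower. Of the 9 genes other than *VCAM1*, 5 were then called because *NFKB2* (1.18) and *NFKBIE* (1.33) passed the fold. *RELA* turned to 0.29 (adjusted p = 0.0305 by edgeR), which is below that median. Without the filter the median was 0.25, 2120 genes were called lower, and *REL* (-0.15), *RELB* (-0.23) and *NFKBIA* (-0.13) changed sign without passing the test. With at least 10 counts in every sample, where fewer genes were tested, 1620 genes were called higher and 704 lower. *NFKBIE* was also called after thinning (1.32). *RELB* changed sign with DESeq2 (-0.0486) and with the replicate block (-0.0061). Leaving out 1 sample at a time gave ranges of -0.22 to 0.13 for *RELB*, -0.0785 to 0.23 for *REL* and -0.0463 to 0.33 for the log2 count ratio of *RELB* to *RELA*. The cause of these changes was not tested. Pairing by replicate number was not seen (correlations of same-numbered deviations 0.008, 0.012 and -0.016, and not every sample correlated best with its own number). These correlations cannot exclude pairing, because sampling noise in genes with few counts also lowers them. With the replicate block 2798 genes were called higher, 1133 lower and 3 of the 9. Depth limited *REL*, with 15 counts in its smallest value, and most ligands and integrin chains, which were not detectable well enough to test.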
